A study of Saccharomyces cerevisiae with 13 samples.

Results

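The ribosome biogenesis factor genes of *Saccharomyces cerevisiae* encode nucleolar proteins that process ribosomal RNA and assemble the ribosomal subunits. The set was drawn up by name from the NOP, UTP, NOC, DBP, RPF and IMP families and related factors, and holds 59 genes. The rule used no measured value, but the members were chosen with earlier results of these data known. Of these, 49 were found by systematic name among the 4280 transcript models with a value, and the other 10 (NOP58, NSR1, NOG2, NUG1, NOP4, HAS1, UTP9, PWP2, TIF6 and KRE33) had no model in the tables used here.

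Strain BY4742, a haploid laboratory yeast, was grown in YPD medium. Heat-shocked cultures had been moved for 20 min to 39°, and log growth cultures stayed at 30°. Nascent RNA was measured by nuclear run-on (NRO), in which stalled polymerases of permeabilized cells extend their transcripts with biotin-UTP and the labelled RNA is selected on streptavidin. The study reports that some unlabelled total RNA remains after the selection, and its part in the values below was not tested. In log growth, total RNA was taken from the same reactions without the selection. The heat shock libraries came from independent cultures, and whether NRO (HS) and total RNA (HS) shared reactions is not stated. The groups are NRO (HS), total RNA (HS), NRO and total RNA, each with 1 processed value per gene from 3 merged libraries. No spread between cultures can be had from merged values, so no p-value is given. All intervals below are exact binomial 95% intervals on estimated reads and cover counting error only.

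Most of the ribosomal RNA starts as one long precursor made by RNA polymerase I in the nucleolus. Small nucleolar ribonucleoproteins (snoRNPs) modify the precursor: those of the box C/D class add methyl groups to riboses and those of the box H/ACA class turn uridines into pseudouridines. The UTP complexes and their partners form the small subunit processome around the 5′ part of the precursor, RNA helicases remodel it, and a separate series of factors builds the large subunit and escorts it to the cytoplasm. The protein genes are transcribed by RNA polymerase II, are known to be switched together by nutrients and stress, and are known for a pair of upstream motifs, PAC and RRPE.

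These motifs were looked up first, since they are a property of the genes that neither the rule nor the read data used. In the 300 bases before the start codon (RefSeq sequence, assembly R64, either strand), PAC, searched as GATGAG, was present in 56 of the 59 genes (94.9%), against 1148 of 6001 protein-coding genes (19.1%). The longer form GCGATGAG was present in 35 of the 59 genes (59.3%), against 4.05% of all genes. RRPE, searched as AAAAATTT, was present in 52 of the 59 (88.1%), against 15.1% of all genes. Both were present in 50 of the 59 (84.7%), against 5.60% of all genes. Among the 49 genes with a model the same shares were 93.9% for PAC, 85.7% for RRPE and 81.6% for both.

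The motifs stood close together. Over all 91 PAC matches the median distance to the start codon was 116 bases, and over all 87 RRPE matches it was 136 bases. In 48 of the 50 genes with both (96.0%), the nearest pair began within 50 bases of each other, with a median of 17 bases. Of 286 other protein-coding genes with both, 76.2% had a pair this close (median 23 bases). In 37 of the 50 (74.0%) a pair fitted into a window of 30 bases without overlap, against 143 of the 286 (50.0%). RRPE was the one farther from the start codon in 30 of the 37 (81.1%), against 83 of the 143 (58.0%). The 286 include 71 other ribosome biogenesis factors, 15 subunits of RNA polymerases I and III and 1 cytoplasmic ribosomal protein gene. Of the 199 genes left without these, 69.8% had a pair within 50 bases and 42.2% a pair in 30 bases. Among those 199, RRPE was farther in 36 of 84 such pairs (42.9%). The shares describe the sequences, and their differences were not tested. Windows of members that the results below turn on are shown here because the layout can be seen in them. Each is written 5′ to 3′ on the strand of the gene with the closest pair of PAC and RRPE in capitals. CTCATC and AAATTTTT are PAC and RRPE read on the opposite strand. Further matches that overlap the pair, as in NOP7, RRP5, GAR1 and NOP1, are not marked.
GAR1, chrVIII:283411-283440, minus strand: agtgaaAAATTTTTcgaGATGAGgaaagga
EBP2, chrXI:125630-125659, plus strand: actaCTCATCgggactgaAAATTTTTtatt
NOP7, chrVII:695271-695300, plus strand: taaagaAAATTTTTtgcGATGAGatgagat
RPF2, chrXI:592652-592681, minus strand: gaAAATTTTTcatttttttgcGATGAGcta
RRP5, chrXIII:731267-731296, minus strand: attttgAAAAATTTtaaGATGAGatgagct
UTP20, chrII:227447-227476, plus strand: ttccgaAAATTTTTaccGATGAGcattgaa
DBP2, chrXIV:413479-413508, plus strand: cgatgCTCATCgcagaAAATTTTTccttca
NOP1, chrIV:427138-427167, plus strand: aaAAATTTTTcaaattggaaagCTCATCtc

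In the pairs shown, EBP2 and DBP2 have PAC farther from the start codon, and the other windows have RRPE there. EBP2, DBP2 and NOP7 have further matches that stand in the other order. DBP10 and MPP10, both named below, had PAC only, in its longer form, and the capitals mark its last letters.
DBP10, chrIV:394070-394099, plus strand: aaattttcaagcGATGAGatgaaattcata
MPP10, chrX:438778-438807, plus strand: tttcaattttgcGATGAGctcttgaagaaa

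UTP22 (YGR090W), which encodes a small subunit processome protein, was the 1 gene of the 59 with neither sequence in this window. A match is a run of letters and not a measured binding site. Of 101 other ribosome biogenesis factors 70.3% had both motifs, and of 19 subunits of RNA polymerases I and III 78.9% did. Of 126 cytoplasmic ribosomal protein genes 12.7% had PAC, 14.3% had RRPE and 0.794% had both.

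**Figure D1:**
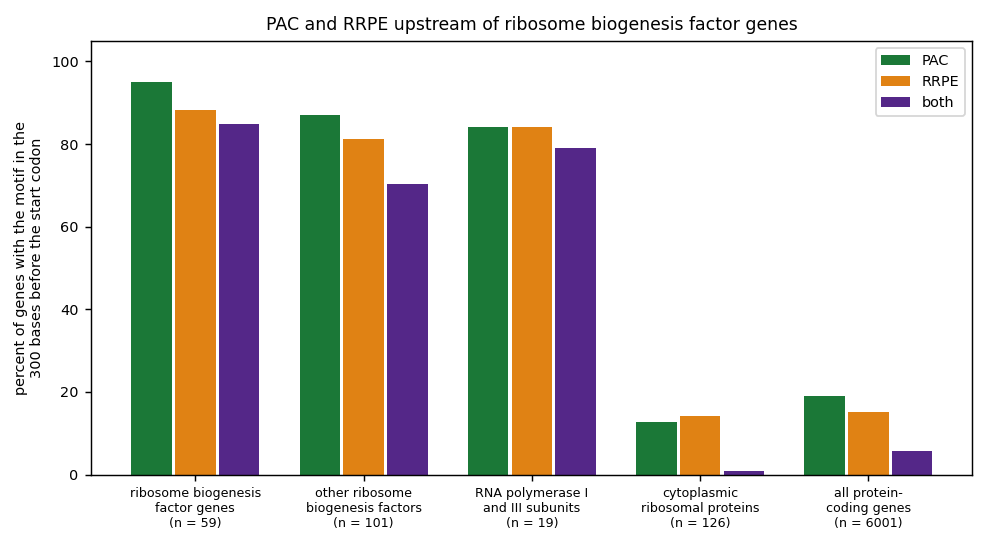
Share of genes (percent, vertical axis from 0) with PAC, with RRPE and with both in the 300 bases before the start codon, for the ribosome biogenesis factor genes, 3 lists set beside them and all protein-coding genes. Both motifs were present in 84.7% of the ribosome biogenesis factor genes, in 0.794% of the ribosomal protein genes and in 5.60% of all genes.

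Depth set how much could be seen. The libraries held 378273 estimated reads for NRO (HS), 656630 for total RNA (HS), 2491144 for NRO and 894262 for total RNA, of which the 49 genes took 1950, 2090, 18537 and 6520. Their median was 13 reads per gene in NRO (HS), 8 in total RNA (HS), 122 in NRO and 44 in total RNA. The heat shock label was borne out by chaperone and stress genes: SSA4 had a read density of 0.901 in NRO (HS) and 0.0296 in NRO, and of 1.71 in total RNA (HS) and 0.0373 in total RNA. HSP12 was 81.4 times higher in NRO (HS) than in NRO and 85.7 times higher in total RNA (HS) than in total RNA, and HSP26 was 22 and 27.5 times higher. LYS2, which the strain lacks, was listed at 0 in all 4. Read density rose with the GC content of the gene in every library (Spearman rho between 0.63 and 0.66 across 4259 genes, and between 0.51 and 0.56 across the 49). The part of base composition in the levels was not tested.

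The 49 genes covered a wide range of read density, that is the mean coverage per mappable nonintronic base scaled to the bases acquired, which can be compared between genes of different length. Their medians were 0.0158 in NRO (HS), 0.00753 in total RNA (HS), 0.0248 in NRO and 0.0243 in total RNA, beside 0.0159, 0.0131, 0.0214 and 0.0192 over all genes. The 5 genes with the most reads held 54.5% of the members' reads in NRO (HS), 46.0% in total RNA (HS), 56.9% in NRO and 48.4% in total RNA. DBP2, GAR1, EBP2, DRS1 and SDA1 were each among these in 3 of the 4 libraries.

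DBP2 (YNL112W), a DEAD-box RNA helicase that works in ribosomal RNA processing and in messenger RNA metabolism, had the highest nascent signal in log growth. Its read density was 0.649 in NRO (HS), 0.172 in total RNA (HS), 1.5 in NRO and 0.321 in total RNA, which placed it 47th of the 4280 models in NRO and 326th in total RNA. GAR1 (YHR089C), a core protein of the H/ACA snoRNPs, led in total RNA with 1.33 (rank 72), and had 0.743 in NRO (HS), 0.458 in total RNA (HS) and 0.536 in NRO. NOP1 (YDL014W), the methyltransferase of the C/D snoRNPs (fibrillarin in animals), had 0.487 in NRO (HS), 0.293 in total RNA (HS), 0.314 in NRO and 0.432 in total RNA. EBP2 (YKL172W), needed for large subunit maturation, had 0.316, 0.197, 0.163 and 0.545 in the same order of libraries. GAR1, NOP1 and EBP2 each had more nascent signal and less total RNA signal in the heat shock libraries than in log growth. DRS1 (YLL008W), a helicase of the large subunit pathway, had 0.15, 0.149, 0.268 and 0.339. In the authors' sacCer2 build the regions measured were chrXIV:413808-416410 for DBP2, chrVIII:282514-283154 for GAR1, chrIV:427433-428560 for NOP1, chrXI:125949-127148 for EBP2 and chrXII:131901-134096 for DRS1, each starting downstream of the transcription start site as set by the authors.

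A total of 12 members were listed at 0 in at least 1 library. IMP3 (YHR148W), a U3 snoRNP protein, was at 0 in NRO (HS), total RNA (HS) and NRO, with 1 read in total RNA, and its partner IMP4 (YNL075W) was at 0 in both heat shock libraries, with 3 reads in NRO and 1 in total RNA. UTP8 and ROK1 were likewise at 0 in both heat shock libraries, with 12 and 16 reads in NRO. NOP56 (a C/D snoRNP core protein), NAN1 and UTP13 were at 0 in NRO (HS) only, with 12, 31 and 27 reads in NRO. UTP15 and CIC1 were at 0 in total RNA (HS) only. RLP24 was at 0 in NRO (HS) and NRO while total RNA (HS) had 3 reads and total RNA 37, and BRX1 and NIP7 were at 0 in all but total RNA (HS), where they had 3 and 4 reads. Growing cells use all of these factors, so a listed 0 is not read here as a silent gene. No fold is given against a 0, and such a gene is left out of the counts below. This holds even where its counting interval did not include 1. In NRO (HS) against NRO, NAN1 and UTP13 had upper limits of 0.832 and 0.964. In total RNA (HS) against total RNA, UTP15 had an upper limit of 0.69. UTP15 had a lower limit of 5.29 in NRO (HS) against total RNA (HS), and RLP24 an upper limit of 0.0376 in NRO against total RNA.

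**Figure D2:**
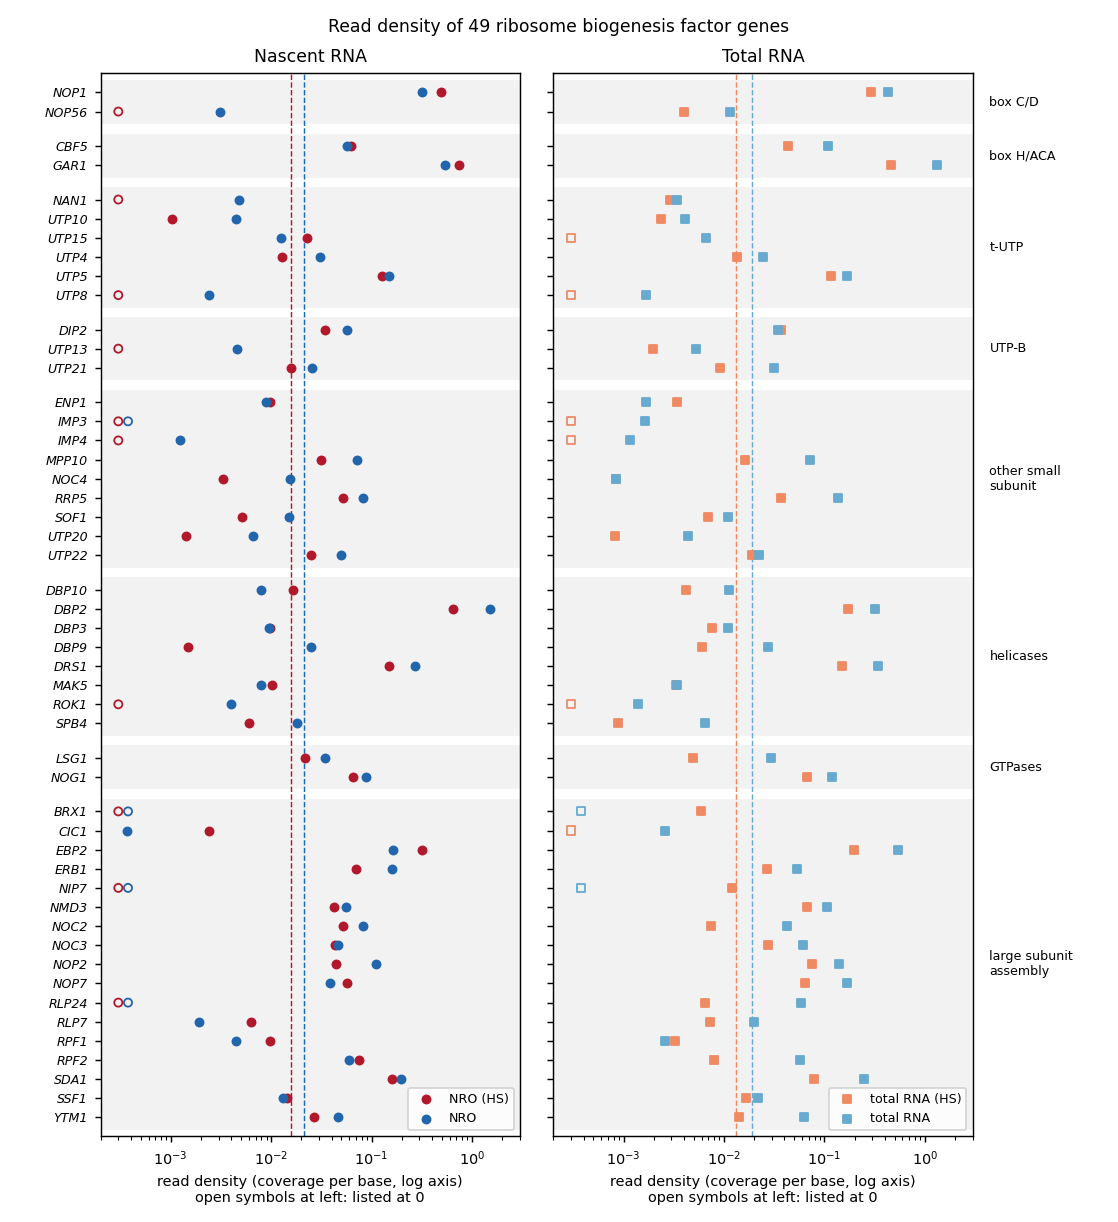
Read density of the 49 genes (log axis, coverage per base scaled to the bases acquired), by role, with nascent RNA in the left panel and total RNA in the right panel. Filled symbols are single merged values, open symbols at the left edge are genes listed at 0, and dashed lines are the medians of all genes, 0.0159 for NRO (HS) and 0.0214 for NRO at left, 0.0131 for total RNA (HS) and 0.0192 for total RNA at right.

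A gene was called higher or lower when its ratio passed 2-fold and the counting interval did not include 1. Total RNA of about as many members fell as did not: of 41 with a value in both libraries, 20 fell and 0 rose in total RNA (HS) against total RNA, where 20.4% of 3282 genes fell and 6.52% rose. The median log2 ratio was -1.19 (quartiles -1.80 and -0.56), and that of all genes was -0.41, a difference of -0.78. Below 1 were 37 of the 41 ratios, against 2161 of 3282 over all genes. Densities are shares of a library, so that a loss of these transcripts and a gain of others cannot be told apart. Centred on the median of all genes, 13 members fell and 0 rose, where 10.9% of all genes fell and 11.9% rose.

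Large subunit assembly factors had the most calls, with 9 of 14 lower and a median log2 ratio of -1.43. RPF2 (YKR081C), which helps to bring the smallest ribosomal RNA into the large subunit precursor, had a read density of 0.00788 in total RNA (HS) and 0.0571 in total RNA, a ratio of 0.138 (interval 0.0441 to 0.355). Its reads numbered 5 in total RNA (HS) and 48 in total RNA. NOC2 (YOR206W), an early factor of the same precursor, had 0.00751 in total RNA (HS) and 0.0424 in total RNA, a ratio of 0.177 (0.0816 to 0.343). SDA1 (YGR245C), a late nuclear factor, had 0.0782 and 0.249, a ratio of 0.314 (0.254 to 0.384).

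EBP2 fell to 0.197 in total RNA (HS), against 0.545 in total RNA (ratio 0.361, 0.301 to 0.432). Its pathway partners NOP7, ERB1 and YTM1, which form one complex on the large subunit precursor, also fell, with ratios of 0.382, 0.493 and 0.224. NOC3 (0.45) and RLP24 (0.110, on 3 and 37 reads) complete the 9. NOP2 (YNL061W), an RNA methyltransferase, did not pass the limit at 0.0747 in total RNA (HS) and 0.141 in total RNA, a log2 ratio of -0.91. NMD3 (YHR170W), the export adaptor of the large subunit, had 0.0666 and 0.106, a log2 ratio of -0.67. SSF1, RLP7 and RPF1 had 14 or fewer reads in total RNA (HS), and their intervals included 1. SSF1 has a near-identical copy, SSF2, in the genome. Mappable were 98.3% of its bases, and the part of the copy in its values was not tested.

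Among the GTPases of the large subunit pathway, LSG1 (YGL099W), which acts on large subunit precursors in the cytoplasm, fell (0.00487 in total RNA (HS), 0.0297 in total RNA, ratio 0.164, 0.0595 to 0.398). NOG1 had 0.0664 and 0.118 and a log2 ratio of -0.83, short of the limit. Of 7 helicases with a value, 4 fell. DRS1 had 0.149 in total RNA (HS) and 0.339 in total RNA (ratio 0.439, 0.375 to 0.513). The other 3 were DBP9, DBP10 and SPB4, with ratios of 0.217, 0.375 and 0.136, on 7, 8 and 1 reads in total RNA (HS). DBP2 had 0.172 in total RNA (HS) and 0.321 in total RNA, a log2 ratio of -0.90.

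Of 7 other small subunit genes with a value, 3 fell. MPP10 (YJR002W), the partner of IMP3 and IMP4, had the lowest ratio among the 19 members with at least 20 reads in both libraries: 0.0163 in total RNA (HS) and 0.0719 in total RNA, a ratio of 0.227 (0.136 to 0.362). RRP5 (YMR229C), a long scaffold protein that acts in both subunit pathways, fell to 0.0368 in total RNA (HS), against 0.137 in total RNA (ratio 0.268, 0.220 to 0.325). UTP20 (YBL004W), a large scaffold protein, also fell (ratio 0.188, 4 and 29 reads). UTP22 was not called, with 0.0190 in total RNA (HS) and 0.0225 in total RNA and a log2 ratio of -0.24 (interval of the ratio 0.573 to 1.23).

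Of the t-UTP proteins, which link the processome to transcription of ribosomal DNA, 0 of 4 were called. UTP5 had 0.118 in total RNA (HS) and 0.167 in total RNA, a log2 ratio of -0.50. Among the UTP-B proteins UTP21 fell (ratio 0.287, 0.156 to 0.496). DIP2 had 0.0366 and 0.0345, a log2 ratio of 0.08 and the highest among members with at least 20 reads in both libraries.

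Both measured H/ACA snoRNP genes fell in total RNA. GAR1 lies tail to tail with RPF1, another member, and the libraries keep the strands apart. GAR1 had 193 reads in total RNA (HS) and 760 in total RNA, a ratio of 0.345 (0.294 to 0.406), and CBF5 (YLR175W), the pseudouridine synthase, a ratio of 0.404 (0.276 to 0.578). Of the C/D genes, NOP1 had a log2 ratio of -0.56 and was not called, and NOP56 had 4 and 16 reads and an interval that included 1.

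**Figure D3:**
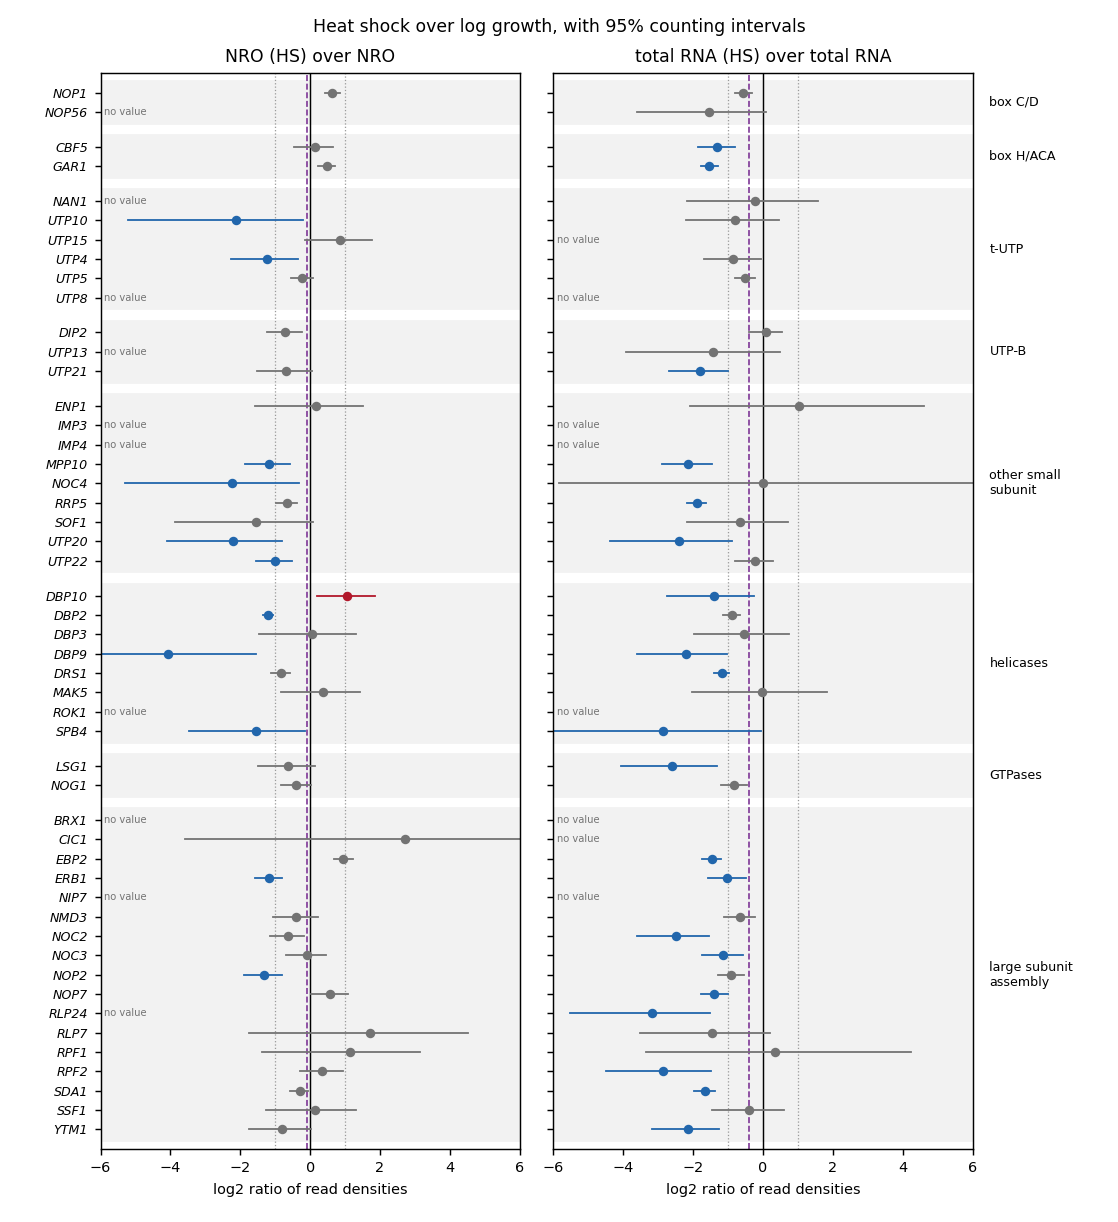
Log2 ratio of read densities for each member by role, NRO (HS) over NRO at left and total RNA (HS) over total RNA at right. Points are ratios of single merged values, bars are 95% counting intervals that stop at the axis ends, blue marks genes called lower, red genes called higher and grey genes not called, dotted lines mark 2-fold and the dashed line marks the median of all genes, -0.10 at left and -0.41 at right. In total RNA 20 of 41 were lower and 0 higher, and in NRO 11 of 39 were lower and 1 higher.

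The other genes of the pathway were set beside the members. Of 73 other ribosome biogenesis factors with a value, 35 fell and 0 rose in total RNA (median -1.09). MDN1, the giant ATPase of the large subunit pathway, had 313 reads in total RNA (HS) and 2294 in total RNA (ratio 0.186, 0.165 to 0.209), and PXR1 and NOP6 had ratios of 0.200 and 0.246. These were the 3 lowest of the list with at least 20 reads in both libraries. Of 10 subunits of RNA polymerases I and III, 5 fell and 0 rose (median -0.95). The lowest with at least 20 reads in both were RPO31 with a ratio of 0.454, RPA135 with 0.463 and RPC31 with 0.580, the last short of the limit. Of 114 cytoplasmic ribosomal protein genes 80 fell and 0 rose (median -1.52), and the lowest with at least 20 reads in both were RPS18A, RPL17A and RPL37B at ratios of 0.126, 0.155 and 0.160. Each of these lists is described by its counts only, beside the 20.4% of all genes.

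Nascent RNA was lower for some of the genes and higher for 1. Of 39 members with a value in both NRO libraries, 11 fell and 1 rose in NRO (HS) against NRO, where 18.9% of 2894 genes fell and 13.1% rose. The median log2 ratio was -0.40 (quartiles -1.19 and 0.35), beside -0.10 for all genes, a difference of -0.30. Summed over the members the reads gave a ratio of 0.693 (0.661 to 0.726), and without DBP2, which held 5968 of the 18537 reads in NRO, 0.816 (0.773 to 0.860).

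Of 7 helicases, 3 fell and 1 rose. DBP2 fell to 0.649 in NRO (HS), against 1.5 in NRO (393 and 5968 reads, ratio 0.434, 0.391 to 0.480). DBP9, a helicase of the large subunit pathway, had 1 read in NRO (HS) and 110 in NRO, a ratio of 0.0599 (0.00150 to 0.341), and SPB4 had 4 and 78 reads, a ratio of 0.338. DBP10 alone rose, at 0.0163 in NRO (HS) and 0.00787 in NRO (18 and 57 reads, ratio 2.08, 1.15 to 3.59). DRS1 had 0.15 and 0.268, a log2 ratio of -0.84.

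Of 7 other small subunit genes 4 fell: NOC4, UTP20, MPP10 and UTP22. MPP10 had a read density of 0.0310 in NRO (HS) and 0.0709 in NRO (ratio 0.438, 0.274 to 0.668), and UTP22 had 0.0249 and 0.04998 (ratio 0.498, 0.340 to 0.698). NOC4 and UTP20 rested on 2 and 4 reads in NRO (HS). Among the t-UTP genes UTP4 (ratio 0.424) and UTP10 (ratio 0.227) fell, on 11 and 2 reads in NRO (HS).

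Of 14 large subunit assembly genes 2 fell, and their median log2 ratio was 0.02. NOP2 fell to 0.0446 in NRO (HS), against 0.112 in NRO (ratio 0.399, 0.268 to 0.573). ERB1 fell to 0.0703 in NRO (HS), against 0.160 in NRO (ratio 0.438, 0.332 to 0.568). EBP2 had 0.316 in NRO (HS) and 0.163 in NRO, a log2 ratio of 0.95 (interval of the ratio 1.59 to 2.32) that lay above 1 and just short of 2-fold.

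NOP7 had 0.0572 in NRO (HS) and 0.0385 in NRO (log2 ratio 0.57), and RPF2 had 0.0750 and 0.0596 (log2 ratio 0.33). The snoRNP genes NOP1 and GAR1 also had more nascent signal after heat shock, with log2 ratios of 0.63 and 0.47 and intervals of 1.33 to 1.81 and 1.17 to 1.63. CBF5 had a log2 ratio of 0.13. None of these genes passed the 2-fold limit. NOP1 and GAR1 are the 2 members with a GC content above 43%, where the median log2 ratio over all genes was 0.21. GAR1 is also in the shortest length class (up to 664 bases), where the median over all genes was 0.30.

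The nascent change varied with the length of the region measured. Across the 39 members the Spearman rho of log2 ratio and region length was -0.53, and across all genes it was -0.25. In the longest of 5 length classes (2139 bases and more) the median log2 ratio was -0.63 over all 722 genes and -0.84 over 13 members, of which 6 fell. In the next class (1478 to 2138 bases) it was -0.18 over all 622 genes and -0.63 over 15 members, of which 5 fell, and 0 of the 11 shorter members fell. Centred on the median of genes of like length, 5 members fell and 2 rose, where 15.7% and 14.7% of all genes did. Centred on the median of genes of like GC content, 4 fell and 3 rose, where 15.6% and 14.5% of all genes did. For the members' total RNA change and region length rho was 0.08. The parts of length and base composition in the nascent falls and rises were not tested.

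Total and nascent changes were then set side by side for the same genes; they share no library. Of the 20 members that fell in total RNA, 5 also fell in NRO, 13 were not called in NRO, 1 rose (DBP10) and 1 had no NRO value (RLP24). Those 5 are 25% of the 20, and over all genes 222 of the 669 that fell in total RNA (33.2%) also fell in NRO. They are also 45.5% of the 11 members that fell in NRO, against 40.6% of the 547 genes that did. A further 6 fell in NRO without a call in total RNA. For 37 members with all 4 values, Pearson r of the log2 changes was 0.20 and Spearman rho 0.14. Over 2781 genes r was 0.38 and rho 0.36. The points share libraries and depth, and these values are descriptions.

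In 26 of the 37 (70.3%) the nascent ratio was above the total RNA ratio, with a median difference of 0.61 on the log2 scale. Over all genes this held for 57.0%, with a median difference of 0.20. It held for 84.4% of 64 other ribosome biogenesis factors (median difference 0.85) and for 78.9% of 95 ribosomal protein genes (0.89). Both ratios were below 1 in 22 members (59.5%), against 43.2% of all genes. In 11 members (29.7%) the nascent ratio was above 1 with the total RNA ratio below 1, against 23.2% of all genes, 39.1% of the other ribosome biogenesis factors and 26.3% of the ribosomal protein genes. GAR1, EBP2, NOP7, NOP1 and RPF2 belong to these 11, and the interval of the nascent ratio did not include 1 for the first 4 of them.

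**Figure D4:**
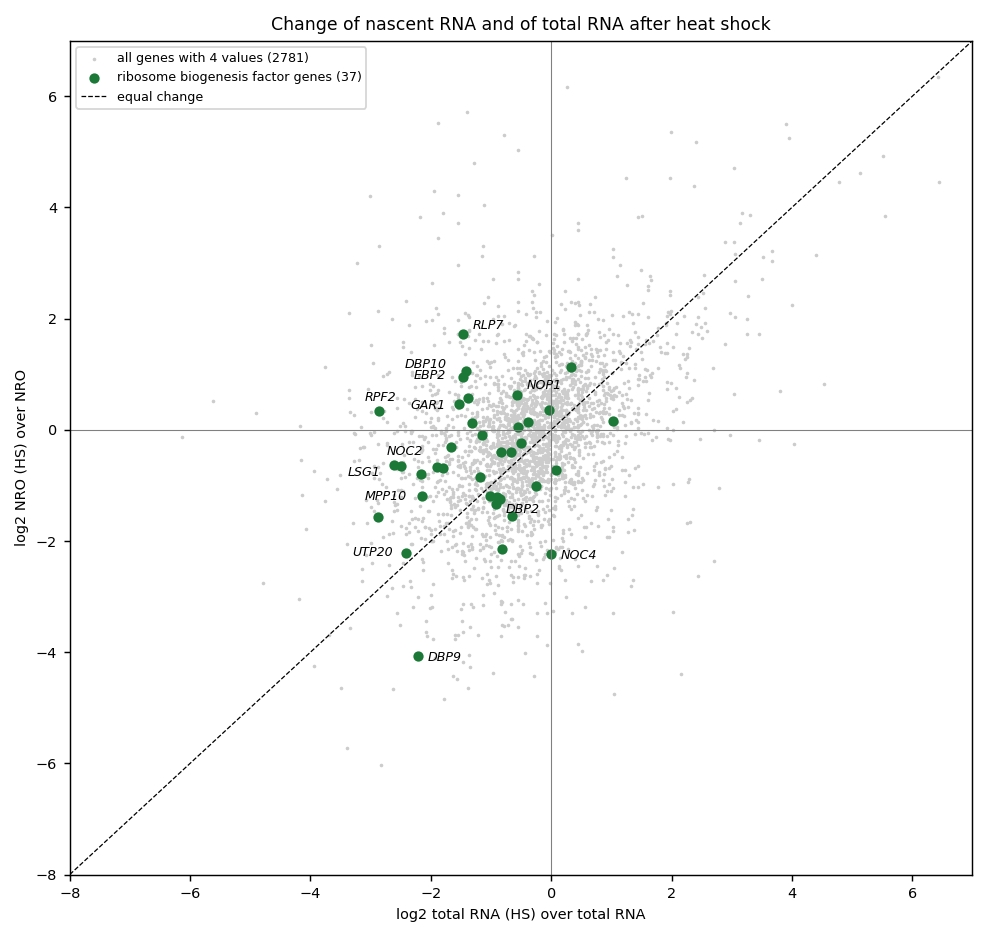
Log2 change of total RNA (horizontal) and of nascent RNA (vertical) after heat shock, for 37 ribosome biogenesis factor genes in green and 2781 genes in grey, 1 point per gene. The dashed line marks equal change, and 26 of the 37 lie above it.

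The ratio of nascent to total RNA within a condition sets the nascent signal of each gene against its transcript level. After heat shock 7 of 37 members were called higher in NRO (HS) against total RNA (HS) and 0 were called lower, where 17.7% of 2831 genes were higher and 8.23% lower. By the ratio alone 12 were at least 2-fold higher and 2 at least 2-fold lower, where 24.4% and 12.9% of all genes were. Below 1 were 11 of the 37 ratios, against 1184 of 2831 over all genes. Centred on the median of all genes, 6 members were higher and 0 lower, where 13.8% and 12.1% of all genes were. The median log2 ratio of the members was 0.68, beside 0.22 for all genes, and it was 0.28 when centred by GC content and 0.18 with a pseudocount of 0.01, beside 0 for all genes in both.

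RPF2 stood highest with 0.0750 in NRO (HS) and 0.00788 in total RNA (HS), a ratio of 9.51 (3.56 to 31.2), on 27 and 5 reads. NOC2 (6.99), LSG1 (4.51) and DBP10 (3.91) also rested on 10 or fewer reads in total RNA (HS). The better covered genes among the 7 were DBP2 (0.649 and 0.172, ratio 3.77, 3.15 to 4.52), ERB1 (0.0703 and 0.0266, ratio 2.65) and SDA1 (0.160 and 0.0782, ratio 2.05). The lowest ratios were those of DBP9 (log2 ratio -2.01, on 1 and 7 reads) and UTP10 (-1.20, on 2 and 8 reads), whose intervals included 1. Among the 18 members with at least 20 reads in both libraries the lowest was NOP2, with 0.0446 in NRO (HS) and 0.0747 in total RNA (HS) (log2 ratio -0.74). NMD3 had 0.0420 and 0.0666 (-0.66), and NOP7 0.0572 and 0.0642 (-0.17). DIP2 and NOG1 had log2 ratios of -0.09 and -0.01, and MPP10 and NOP1 of 0.93 and 0.73.

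In log growth 7 of 45 members were higher and 5 lower in NRO against total RNA, where 18.4% of 3400 genes were higher and 15.9% lower. The median log2 ratio was -0.16, beside -0.01 for all genes. Of the 7 higher, 3 were among 8 helicases, 3 among 8 other small subunit genes and 1 among 14 large subunit assembly genes, which also held 3 of the 5 lower. DBP2 had 1.5 in NRO and 0.321 in total RNA, a ratio of 4.66 (4.24 to 5.13), the highest of the 28 members with at least 20 reads in both.

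ERB1 followed with 0.160 in NRO and 0.0538 in total RNA (ratio 2.98, 2.45 to 3.68) and UTP22 with 0.04998 and 0.0225 (ratio 2.22, 1.72 to 2.84). NOC2 and DIP2 had log2 ratios of 0.95 and 0.71, short of the limit. MAK5, SPB4, ENP1 and NOC4 were called higher on 7, 10, 2 and 1 reads in total RNA, so that their ratios are poorly bounded (for NOC4, 3.85 to 893.1).

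At the low end NOP7 had 0.0385 in NRO and 0.168 in total RNA (ratio 0.229, 0.188 to 0.278). EBP2 had 0.163 and 0.545 (ratio 0.300, 0.266 to 0.340), and GAR1 had 0.536 and 1.33 (ratio 0.404, 0.366 to 0.446). NMD3 and CBF5 had log2 ratios of -0.94 and -0.92, and the calls for NOP56 and RLP7 rested on 12 and 4 reads in NRO and 16 and 15 in total RNA. The 3 well covered genes with the lowest ratio in log growth had log2 ratios of -0.17 (NOP7), 0.68 (EBP2) and 0.70 (GAR1) between the heat shock libraries, and none was called there. The difference between the conditions was not tested.

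**Figure D5:**
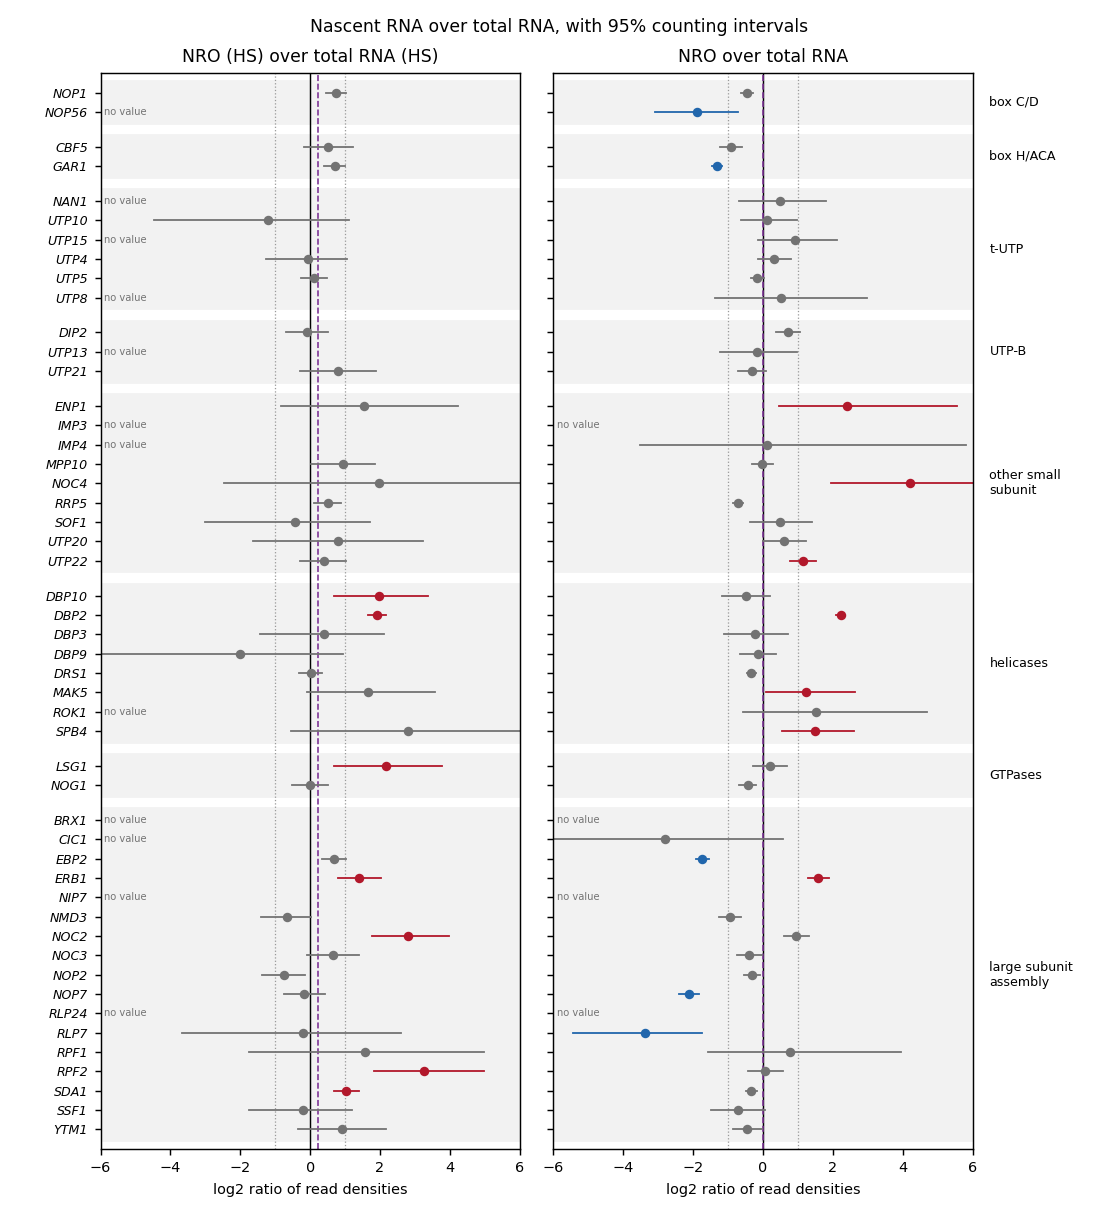
Log2 ratio of nascent to total RNA for each member by role, after heat shock at left and in log growth at right, drawn as in the plot of changes after heat shock. DBP2 and ERB1 were called higher in both conditions, and GAR1, EBP2 and NOP7 were called lower in log growth.

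DBP2 is the 1 member with an intron in the region measured. That region, chrXIV:413808-416410 in the authors' sacCer2 build, held 1002 intronic and 1601 exonic bases. Intronic reads numbered 0 in NRO (HS), 4 in total RNA (HS), 51 in NRO and 5 in total RNA. As a share of the exonic density this was 0% in NRO (HS), with an interval that reaches 1.51%, and 3.53% (0.952 to 9.20) in total RNA (HS), 1.36% (1.02 to 1.80) in NRO and 1.74% (0.561 to 4.08) in total RNA. The intervals of NRO (HS) and total RNA (HS) shared the range of 0.952% to 1.51%, and that of NRO lay within that of total RNA. The intronic density itself was 0.0203 in NRO and 0.00558 in total RNA. The differences between libraries were not tested.

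The motif classes were set against the changes. Of 33 members with both motifs and a total RNA value, 16 fell (48.5%, median -1.19), and of 6 with PAC only, 4 fell. Members with RRPE only and with neither gave 0 of 1 each. Among genes outside the lists, 40 of 133 with both motifs fell (30.1%, median -0.71), against 337 of 2198 with neither (15.3%, median -0.26). With PAC only 19.4% of 372 fell, and with RRPE only 23.6% of 331. The lists left out here hold the ribosomal protein genes, of which 73.8% had neither motif and 80 of 114 fell. Over all genes, lists included, 38.2% of 228 with both motifs fell and 17.3% of 2287 with neither. In nascent RNA 8 of 31 members with both motifs fell (25.8%), as did 26.1% of 119 genes outside the lists with both and 17.5% of 1942 with neither. With PAC only 17.6% of 324 genes outside the lists fell, and with RRPE only 23.1% of 286. The part of the motifs in the changes was not tested.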

How the data were processed

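The labels list 13 libraries, of which the 1 library of NRO 3′ ends was not analysed here. Per the study's methods, the authors aligned reads to sacCer2 with Maq (version not given in the sources used here), removed rDNA, pooled the 3 libraries of each group and counted depth by strand over transcript models without same-strand overlap. The deposited column used is a signal, the coverage per mappable nonintronic base of each region after its first bases, scaled to the bases acquired. A total of 16 other columns, among them the authors' significance of each gene, was not used.

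Reads were estimated from the deposited depths. The smallest unit shared by all depths of a library was taken as 1 base, and the read length was the one that most low depths are multiples of (36 bases, and 38 for total RNA). The study's methods give one length of 36 bases for all reads. For total RNA the study reports more unique reads outside ribosomal RNA than are estimated here. With 36 bases total RNA would have 5.56% more reads, and the numbers of members called did not change. A gene was called past 2-fold with an exact binomial 95% interval of the ratio that did not include 1. Genes at 0 in a library have no ratio there. PCR copies could not be told from separate molecules, so that intervals and limits cover counting error only. The steps were tested on simulated data.

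Motifs and GC content came from RefSeq R64, in which 4259 of the 4280 models and all 59 genes were found by systematic name. Regions are in sacCer2 and sequence windows in R64, and no coordinate was converted. The rule named all members by role, the 5 highest and 5 lowest members of each comparison with 20 or more estimated reads in both libraries, members listed at 0, the label checks (SSA4, HSP12, HSP26, LEU2, URA3 and LYS2, of which LEU2 and URA3 had no model) and, from each list set beside the members, the 3 genes with the lowest total RNA ratio among those with 20 or more reads in both libraries. The members and lists were chosen with earlier results of these data known. Software was matplotlib 3.10.9, scipy 1.17.1, pandas 2.3.3 and numpy 2.4.6 under Python 3.11.15.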

Additional observations from a re-analysis of the deposited data

How the results depend on the processing

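No paired analysis was possible because the processed files used here hold 1 merged value per gene and group, and for the same reason no replicate could be left out. Depth limits the heat shock libraries most: 26 members had 10 or more reads in NRO (HS) and 23 in total RNA (HS). Centring on GC content or region length and a read length of 36 bases in total RNA were chosen after seeing the data. The causes of the shifts below were not tested, except that a filter leaves fewer genes to test. Percentages in brackets are the shares of all genes called in the same direction at the same setting.

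The 20 members lower in total RNA (HS) became 12 at 3-fold, 13 when centred on the median of all genes, 13 with 10 or more reads in each library, 12 when centred by GC content and 13 by region length, and the 0 higher became 1 with the 2-fold limit alone. The median of -1.19 became -0.78 centred on all genes, -0.59 with a pseudocount of 0.01, -0.74 centred by GC content and -0.73 by region length.

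The 11 members lower in NRO (HS) became 4 at 3-fold, 6 with at least 10 reads, 4 with the pseudocount, 4 centred by GC content and 5 by region length. The 1 higher (13.1%) became 3 at 1.5-fold (19.2%), 0 at 3-fold (7.22%) and 4 with the 2-fold limit alone (16.2%). Centred on all genes 2 were higher (14.8%), and with the pseudocount 0 (7.38%). Centred by GC content 3 were higher (14.5%), and by region length 2 (14.7%). The median of -0.40 was -0.06 when centred by region length, beside 0 for all genes.

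For NRO against total RNA, the 7 of 45 higher (18.4%) became 3 at 3-fold (9.85%). They became 4 of 34 with at least 10 reads (16.6%) and 3 of 49 with the pseudocount (8.76%). The 5 lower (15.9%) became 8 at 1.5-fold (24.9%). The median of -0.16 turned to 0.029 as the ratio of summed reads, and without DBP2 that ratio was -0.43. After heat shock the 7 of 37 higher (17.7%) became 11 at 1.5-fold (24.4%) and 12 with the 2-fold limit alone (24.4%). They became 4 of 22 with at least 10 reads (17.7%). The 0 lower (8.23%) became 1 at 1.5-fold (13.2%) and 2 with the 2-fold limit alone (12.9%). The median of 0.68 became 0.18 with the pseudocount and 0.28 centred by GC content. No other count moved by over 1.5 times, and no other median changed sign. With at least 90% mappable bases no count or median changed.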
